A study of Mus musculus with 9 samples.

Results

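Reissner's membrane kept as an explant for 24 h with dexamethasone was compared with membrane taken fresh, to see which genes of the fresh tissue held their level, which overshot it and which were still lost although the steroid was present. Dexamethasone is a synthetic glucocorticoid. The comparison used 6 of the 9 arrays in the series: dexamethasone arrays A, B and C (24 h, 100 nM) and fresh arrays A, B and C (0 h, no culture, no steroid). All probe sets other than controls with a signal of 200 or more on at least 3 of these 6 arrays were tested, which left 18559 of 45101. The remaining 3 arrays, from explants kept 24 h without the steroid (incubated), stand beside as values. They also entered the fit, in which all 9 arrays share an estimate of the spread. All tissue came from adult mice, and the sources used here do not give a strain. Membranes were dissected by hand and pooled, and each pooled sample was put on 3 chips. Every p-value, SD, SE and interval below, and with them the class of kept genes, thus reflects array-to-array spread alone. That spread may be technical. For dexamethasone arrays B and C the label gives the dose in mM, whereas array A and the design text have nM. The labels state that explants did not proliferate.

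Reissner's membrane is a thin sheet in the cochlea with an epithelium on the endolymph side and a mesothelium on the perilymph side. Its epithelium takes up sodium through the epithelial sodium channel, a route that corticosteroids stimulate in this and other epithelia. A steroid bound to the glucocorticoid receptor moves it to the nucleus, where it raises transcription at glucocorticoid response elements and restrains inflammatory transcription. A fresh membrane from a live animal has already been exposed to the animal's own corticosteroids.

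Each probe set had 1 linear signal per array, and the trimmed mean signal was 500 throughout. Of all probe sets, 39.4% reached 200 on each fresh array and 37.4% to 37.7% on the dexamethasone arrays. The ratio of the 3′ to the 5′ actin probe set, which rises when RNA is shortened, was 3.97 to 4.26 on fresh arrays and 1.79 to 1.96 on dexamethasone arrays, and that of Gapdh was 6.91 to 7.53 and 5.02 to 5.47. The part of this difference in the results was not tested. In a bulk sample, fewer cells of a type and less RNA per cell cannot be told apart, and this holds for each gene below.

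The dexamethasone explants differed from fresh membrane at most genes. A linear model in limma called 76.6% of the tested probe sets at a Benjamini-Hochberg adjusted p under 0.05, 37.8% higher and 38.8% lower with dexamethasone. Changes of at least 2-fold were called higher at 9.07% of probe sets and lower at 12.7%. With 1 probe set for each gene, 3576 of 10099 genes (35.4%) rose, 4351 (43.1%) fell and 2172 (21.5%) did not pass. The median change over all genes was -0.07 on the log2(signal + 32) scale on which every change here is given, and the 3 dexamethasone and 3 fresh arrays did not overlap for 79.9% of genes. These shares are the background for each list of genes below.

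Of these genes, 9591 belonged to the fresh state, defined as a signal of 200 or more on all 3 fresh arrays. A gene was taken as kept when the 95% interval of its log2 change lay between -0.5 and 0.5, which is less than 1.41-fold either way. This held for 3430 genes (35.8%), and 1531 of them still passed the test for a small difference. A gene was taken as still lost when it was called lower with a log2 change of -1 or less, which held for 1493 (15.6%). It was taken as overshot when it was called higher with a log2 change of 1 or more, which held for 586 (6.11%). The other 4082 (42.6%) lay between these classes, 2122 of them called lower and 1795 called higher.

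The class of lost genes included many with high signals in fresh tissue. Of the 1493, 641 had a fresh mean of 1000 or more and 686 lay under 200 on all 3 dexamethasone arrays. Their median signal was 802 on fresh, 251 on incubated and 206 on dexamethasone arrays. Overshot genes had medians of 767, 1925 and 2161, and kept genes of 1287, 1311 and 1276. In incubated explants, 1458 of the 1493 lost genes were also called lower than fresh. Of the 586 overshot genes, 572 were also called higher than fresh there. The incubated and the dexamethasone values are set against the same fresh arrays, so the likeness of the 2 explant groups is not independent evidence. Wnk4, at -1.002, lay just inside the lost class, and Slc12a4, at 0.998, just outside the overshot class. A further 508 tested genes were not at 200 on every fresh array, and 220 of these rose at least 2-fold. The filter fixed some directions: 1529 probe sets reached 200 on the 3 fresh arrays alone and had to be lower with dexamethasone, and 844 reached it on the 3 dexamethasone arrays alone and had to be higher. The 686 lost genes under 200 on all dexamethasone arrays are of the first kind, as is each gene below given as at least so many times lower, and those given as at least so many times higher are of the second. List counts and medians hold such genes and are descriptions.

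**Figure D1:**
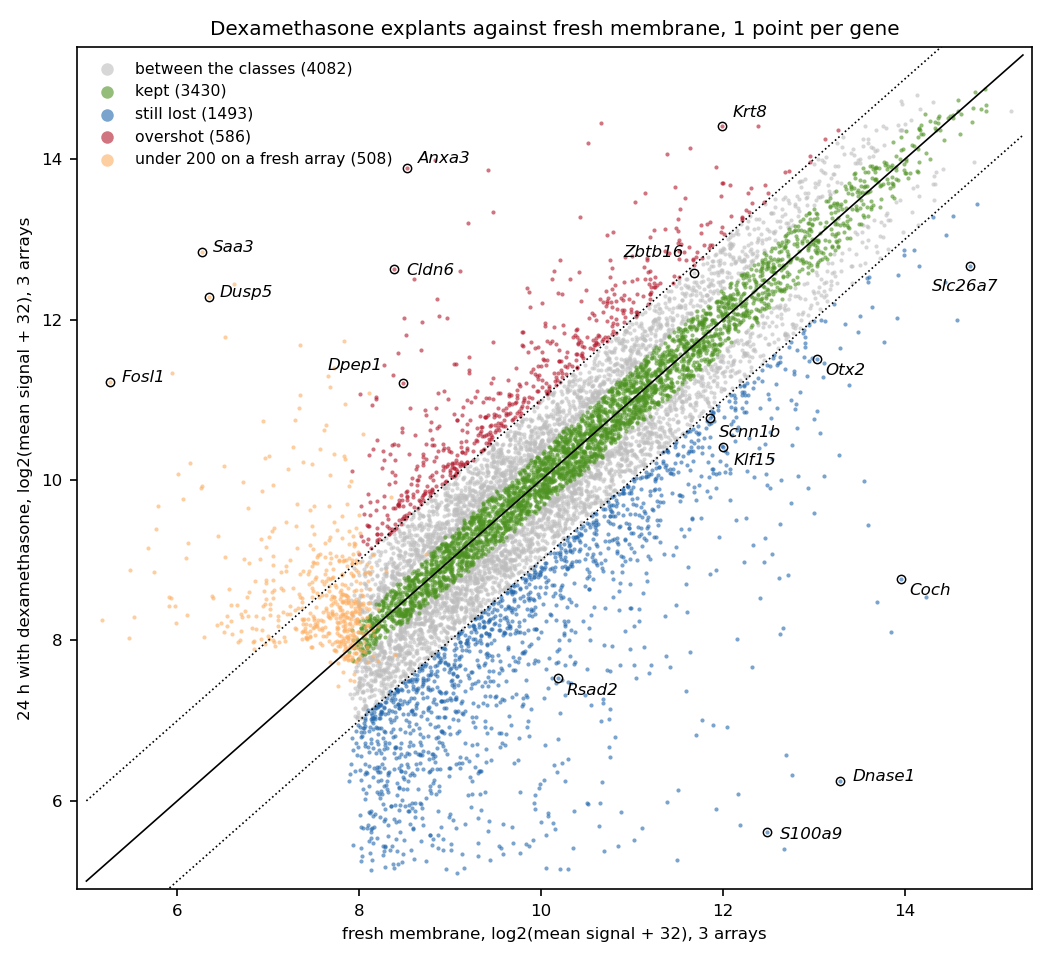
Mean signal of each of 10099 genes in fresh membrane (x axis) and after 24 h with dexamethasone (y axis), both as log2(mean signal + 32) over 3 arrays. The solid line marks equal levels and the dotted lines a log2 difference of 1. Colours give the classes, with 3430 kept, 1493 still lost and 586 overshot genes, and circles mark 16 named genes.

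Of 5 listed markers of Reissner's membrane, 4 were on the array and 3 were tested, of which Slc26a7 and Otx2 were still lost. Slc26a7, an anion exchanger, had signals of 25059.9, 27850.0 and 27677 on the fresh arrays A to C and 6929, 6229 and 6220.4 on the dexamethasone arrays. Otx2, a homeobox transcription factor of head and inner ear development, had 8328, 8187 and 8535 in fresh and 2925, 2751 and 2998 in dexamethasone arrays. In both cases every dexamethasone array lay below every fresh array, and the incubated means of 9183 and 4527 lay in between. Slc26a7 fell by 2.05 ± 0.057 (SE, n = 3 per group) and Otx2 fell by 1.52 ± 0.046. Lmx1a, with a fresh mean of 241 and a dexamethasone mean of 261, did not pass, and Rbp4 stayed under 200 on all 9 arrays. Both Slc26a7 and Otx2 remained far above 200, so defining markers of the labelled tissue were present in both groups.

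Most of the transcription factors that pattern the inner ear were lower too. Of 30 listed, 28 were on the array and 20 were tested, of which 2 rose and 15 fell, with a median of -0.97. Zic1 had 1256, 1255 and 1165 in fresh and 8.8, 1 and 1.1 in dexamethasone arrays, so that it was at least 6.13-fold lower when the explant group is held to 200. Meis1 fell from 5765 ± 137 (SD, n = 3) to 2128 ± 47.8, with 1 of its 2 other probe sets lower and 1 that did not pass, and Tbx2 fell from 2701 ± 49 to 1055 ± 60.8. Of the tested factors 4 were kept, among them Pou3f4, a POU factor of the cochlear mesenchyme. Its signals were 1347, 1351 and 1371 in fresh and 1718, 1609.6 and 1693 in dexamethasone arrays, with an incubated mean of 612. All dexamethasone arrays were above fresh, within the limits of the kept class (interval 0.18 to 0.42), although its other tested probe set was called lower at -0.92.

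The 3 subunits of the epithelial sodium channel, the route of sodium entry, ended above, near and below their fresh levels. Scnn1a, the alpha subunit, had 1825, 2059.7 and 2061 in fresh and 2718, 2809.5 and 2550.1 in dexamethasone arrays. Scnn1g, the gamma subunit, had 2032, 1898 and 2074 in fresh and 1657, 1821 and 1822 with dexamethasone. Scnn1b, the beta subunit, had 3626, 3652 and 3777 in fresh and 1564, 1714 and 1877 with dexamethasone. All dexamethasone arrays were above all fresh arrays for Scnn1a and below them for Scnn1b and Scnn1g, for Scnn1g by a small margin. Scnn1a rose by 0.44 ± 0.063 (adjusted p = 3.43e-05) and Scnn1b fell by 1.09 ± 0.066 (adjusted p = 8.06e-09). Scnn1g fell by 0.18 ± 0.065 (adjusted p = 0.0255) and was kept by its interval of -0.32 to -0.04. Median centring (adjusted p = 0.0603) or leaving out fresh array A, fresh array C or dexamethasone array A ended the Scnn1g call (adjusted p = 0.0684, 0.0854 and 0.11). Incubated means were 918, 1154 and 1588 in the same order.

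Regulators of the channel also went both ways. Sgk1, the kinase that keeps the channel at the surface, had 8772, 8459.8 and 7823 in fresh and 7190.3, 7072 and 7440.1 in dexamethasone arrays. Its arrays did not overlap and Sgk1 fell by 0.21 ± 0.052 (adjusted p = 0.00306), yet its interval of -0.32 to -0.09 kept it in the range of the fresh state. Prss8, a protease that activates the channel, had a change of 0.08 ± 0.05 that did not pass (adjusted p = 0.156, or 0.0496 with median centring), with an interval of -0.03 to 0.19. Nedd4l, the ubiquitin ligase that removes the channel, had 1745, 1776 and 1665 in fresh and 3751, 3836 and 3955 in dexamethasone arrays and overshot, as it rose by 1.14 ± 0.047. Its incubated mean of 3390 was already well above fresh. Of 3 other tested Nedd4l probe sets, 1 rose by 1.07, 1 fell by 1.19 and 1 did not pass. Wnk4, a kinase that regulates ion transport in the kidney, had 1993, 2087 and 2016 in fresh and 1039, 972 and 986 with dexamethasone, against an incubated mean of 249 ± 42.3. Wnk4 thus lay well above the incubated level and well below the fresh level, and fell by 1.002 ± 0.096 against fresh. Usp2, a deubiquitinase that opposes Nedd4l, fell by 0.40 ± 0.06, from 4923 ± 375 to 3724 ± 70.1.

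Most of the named subunits and modulators of the sodium pump, which carries sodium out of the cell, were below fresh. Atp1b1 had 13500.0, 14058 and 14001 in fresh and 8631, 8326 and 8136 in dexamethasone arrays, and fell by 0.73 ± 0.045. Atp1b2 had 11709.7, 11812 and 12441 in fresh and 922, 1046 and 989 with dexamethasone, and fell by 3.56 ± 0.068. Fxyd6 fell by 3.26 ± 0.1, from 4767 ± 158 to 470.3 ± 38.4, whereas Fxyd5 rose by 1.27 ± 0.095, from 313 ± 17.3 to 802 ± 31.5. Atp1b2 is also a marker of the marginal cells of the stria vascularis, whose other tested markers were lower as well, and the part of such cells in its fall was not tested. Of the 24 sodium transport genes listed, 22 were on the array and 21 were tested. Of these 6 rose, 12 fell and 3 did not pass, with 6 kept, 5 still lost and 2 overshot and a median of -0.21 (-0.35 with quantile normalization).

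Both corticosteroid receptors stood below their fresh level. Nr3c1, the glucocorticoid receptor, had 1219, 1157 and 1166 in fresh and 546, 612 and 609 in dexamethasone arrays. Nr3c2, the mineralocorticoid receptor, had 1888, 1805 and 1840.4 in fresh and 937, 1079 and 1062 with dexamethasone. Neither overlapped between the groups, and Nr3c1 fell by 0.97 ± 0.072 and Nr3c2 fell by 0.83 ± 0.062. Both other tested probe sets of Nr3c1 were called lower as well. Hsd11b1, the enzyme that regenerates active glucocorticoid in the cell, had 395, 409 and 346 in fresh and 82.3, 91 and 26.6 in dexamethasone arrays and was at least 1.92-fold lower. The chaperone Hsp90aa1, which holds the receptor ready for the hormone, rose by 0.70 ± 0.059. Of 8 tested genes in this list, 2 rose, 4 fell and 2 did not pass.

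**Figure D2:**
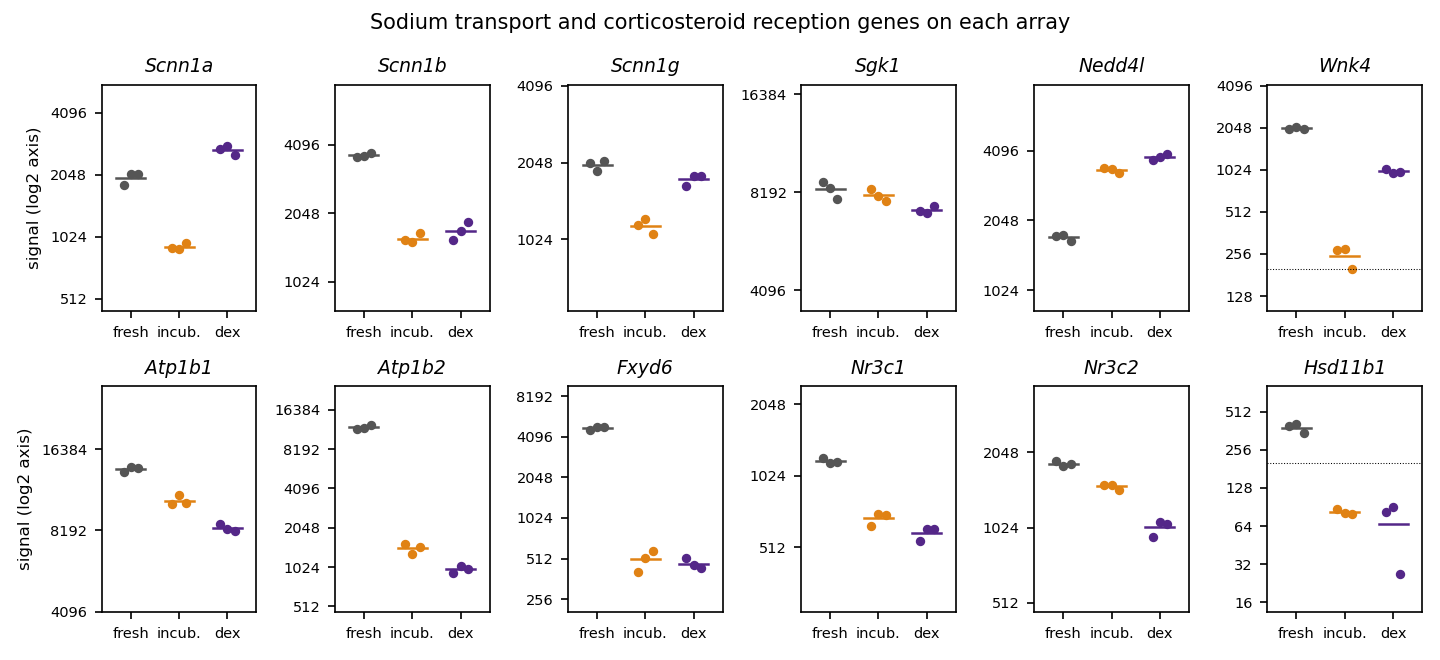
Signal of 12 sodium transport and corticosteroid reception genes on each array (log2 axis, a scale of its own in each panel), with 3 arrays each for fresh, incubated (incub.) and dexamethasone (dex) membrane. Short lines are group means and the dotted line marks 200 where it lies in the panel. With dexamethasone, Scnn1a lies above its fresh arrays, Scnn1g just under them and Scnn1b well under them.

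Known targets of the glucocorticoid receptor spread over all classes of fresh-state genes. Of 37 listed, all 37 were on the array and 33 were tested, of which 13 rose, 18 fell and 2 did not pass. By class, 6 were kept, 8 were still lost and 8 overshot, and the median was -0.21, against -0.71 for incubated arrays over the same genes and the same fresh arrays. With quantile normalization the median with dexamethasone was -0.31. Zbtb16, a zinc finger repressor, had 3214, 3188 and 3380.5 in fresh, a mean of 629.6 in incubated and 6108, 6106 and 6049.5 in dexamethasone arrays. Fkbp5, a cochaperone that damps the receptor, had 864, 1073 and 903 in fresh, a mean of 325 in incubated and 1334, 1304 and 1528 in dexamethasone arrays. Both were thus above fresh on every dexamethasone array while the incubated group was below. Zbtb16 rose by 0.89 ± 0.073 (adjusted p = 1.57e-07) and Fkbp5 rose by 0.54 ± 0.1 (adjusted p = 0.000347). The Zbtb16 call rests on its strongest probe set, since 1 of its 2 other probe sets fell by 0.41 and the other did not pass.

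Several well known targets stood between the incubated and the fresh level. Tsc22d3, the leucine zipper gene GILZ, had 990.5, 966 and 1023 in fresh and 422, 436 and 443 in dexamethasone arrays, with an incubated mean of 102. Per1, a period gene of the clock, had 1453, 1342 and 1201 in fresh and 659, 531 and 655 with dexamethasone, with an incubated mean of 279. Klf15, a zinc finger factor of metabolism, had 3884, 4129 and 4228 in fresh and 1341, 1255 and 1406 with dexamethasone, with an incubated mean of 577. For each of these the dexamethasone arrays lay between the incubated mean and the lowest fresh array. Tsc22d3 fell by 1.14 ± 0.11, Per1 fell by 1.08 ± 0.095 and Klf15 fell by 1.59 ± 0.07, so all 3 were still lost. Both other tested Tsc22d3 probe sets, at fresh means of 207 and 301, did not pass. Sult1a1, a sulfotransferase, fell by 1.75 ± 0.086, from 1789 ± 22.2 to 511 ± 19.1 with an incubated mean of 67.9. Bcl6, a transcriptional repressor, fell by 1.57 ± 0.066, and Cdkn1c, a cell cycle inhibitor, fell by 1.54 ± 0.084.

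Other targets were kept or stood above fresh. Klf9, a zinc finger factor, had 17626, 18072 and 18664 in fresh and 14419, 13937 and 15687 in dexamethasone arrays and was kept, with an interval of -0.44 to -0.17. Its 4 other tested probe sets gave 1 rise, 1 fall and 2 that did not pass. Glul, glutamine synthetase, was kept with an interval of -0.20 to 0.00, at 11358 ± 644 in fresh and 10580.3 ± 167 with dexamethasone, although its weaker probe set fell by 0.47. Pdk4, the kinase that shuts pyruvate dehydrogenase, had 502, 511 and 498 in fresh and 1145, 1206 and 1196 in dexamethasone arrays, and its incubated mean of 503 was close to the fresh mean of 504. Pdk4 rose by 1.18 ± 0.078. Cebpd, a transcription factor of the acute phase, rose by 2.05 ± 0.049, from 857 ± 26.8 to 3645 ± 66.4. Lcn2, lipocalin 2, rose by 1.77 ± 0.053, from 1703 ± 90 to 5894 ± 279.5. The metallothionein gene Mt1 rose by 2.51 ± 0.053 to 18105 ± 688, and its incubated mean of 15745 was already above fresh.

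The start regions of Sgk1 and Trim63 are given to show the letters of a response element beside these values. The letters GNACANNNTGTNC, an inverted repeat that reads the same pattern on both strands, were searched in RefSeq windows of 300 bases (GRCm38.p6), from 250 before to 50 after a gene's start. They occurred in 0.475% of 32851 windows. By gene, they occurred in 34 of 8227 tested genes with a window (0.413%). Of the 28 tested targets with a window, 3 held them, namely Fam107a, Mt1 and Sgk1. The Sgk1 window (chr10:21993640-21993839, plus strand, 1 of its 6 start entries) has the match 188 bases before the start. It also holds the longer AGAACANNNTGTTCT, which contains the first pattern and occurred in 0.00913% of windows. Trim63, which is not among the listed targets and was chosen after its values were seen, is a muscle ubiquitin ligase that glucocorticoids raise in muscle. Its match lies 208 bases before the start (chr4:134314870-134315069, plus strand). The first 200 bases of each window, to which the coordinates refer, are given 5′ to 3′ with the match in capitals.
Sgk1: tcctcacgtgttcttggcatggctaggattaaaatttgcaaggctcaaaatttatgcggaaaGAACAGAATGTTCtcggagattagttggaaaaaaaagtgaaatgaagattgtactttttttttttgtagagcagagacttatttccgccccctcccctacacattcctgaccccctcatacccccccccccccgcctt
Trim63: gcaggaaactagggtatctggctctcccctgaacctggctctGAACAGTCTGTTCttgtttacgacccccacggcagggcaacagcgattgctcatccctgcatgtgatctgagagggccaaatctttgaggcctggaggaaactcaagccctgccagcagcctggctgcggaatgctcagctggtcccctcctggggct
Trim63 had 369.6, 312 and 417 in fresh and 626, 712 and 602 in dexamethasone arrays, with an incubated mean of 103, and rose by 0.78 ± 0.12 against fresh. Sgk1, with the longer match, stayed within its kept interval. A match is a string of letters and says nothing about binding in this tissue.

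**Figure D3:**
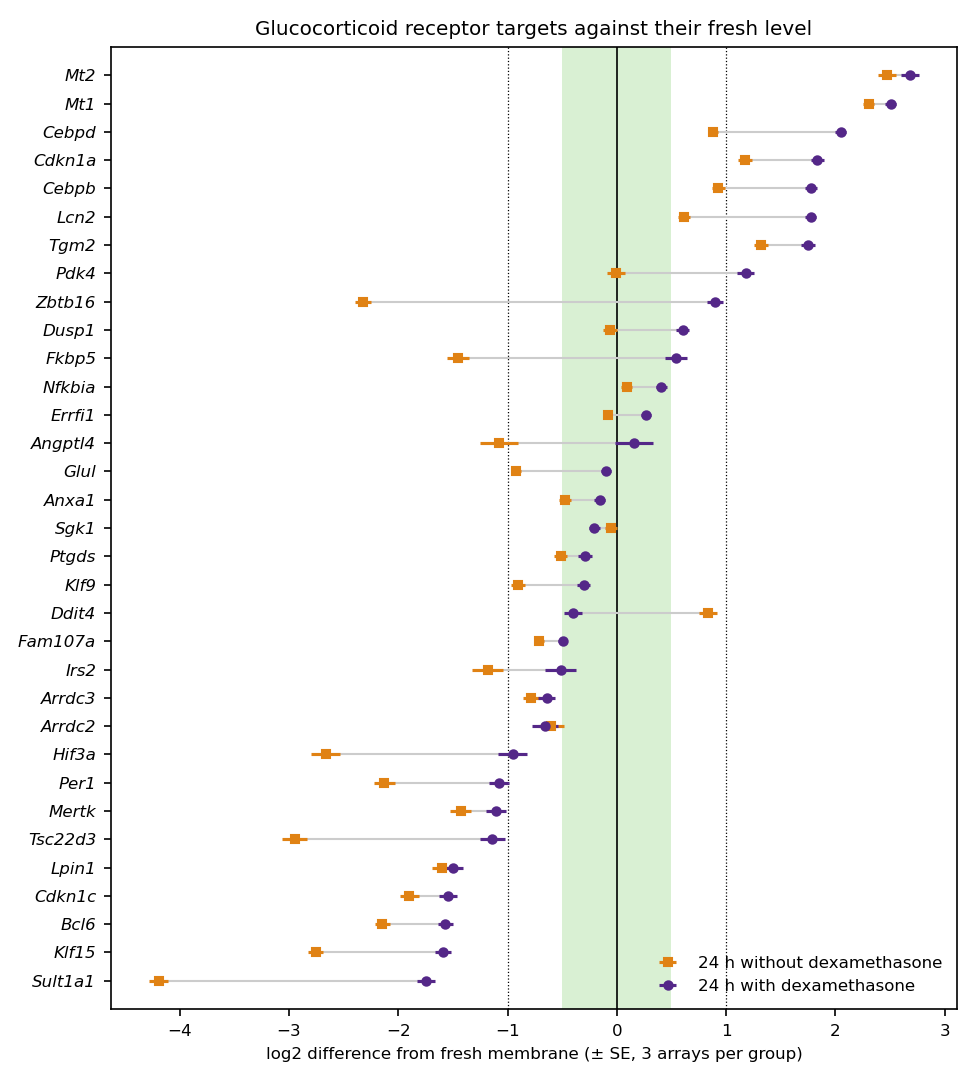
Log2 difference from fresh membrane (x axis, ± SE, 3 arrays per group) of the 33 tested glucocorticoid receptor targets, after 24 h without (squares) and with (circles) dexamethasone, both against the same 3 fresh arrays. The green band is -0.5 to 0.5 and the dotted lines mark -1 and 1. Zbtb16 and Fkbp5 are right of 0 with dexamethasone and left of -1 without, while Sult1a1, Klf15 and Bcl6 stay left of -1 in both.

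Clock genes were still mostly low. Of 19 listed, 18 were on the array and 15 were tested, of which 4 rose and 10 fell, with a median of -0.85 (-0.50 without the filter on low signals). The output factor Dbp had 10859, 10879 and 10429 in fresh and 2179.9, 2548 and 2152 in dexamethasone arrays, with an incubated mean of 2735, and fell by 2.21 ± 0.064. Rora, a nuclear receptor of the clock, fell by 2.05 ± 0.1, from 1863 ± 80.1 to 429.7 ± 74, and all 5 of its other tested probe sets were called lower. The period gene Per3 fell by 1.65 ± 0.06 and the output factor Tef fell by 1.41 ± 0.058. In the other direction Bhlhe40, a repressor in the clock loop, rose by 1.71 ± 0.092, from 394 ± 46.9 to 1363 ± 112, and Cry1 rose by 1.21 ± 0.095. The labels used here give no clock time of dissection, so circadian phase and treatment cannot be told apart for these genes.

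Potassium and anion transport was largely below fresh. Of 27 genes listed, 24 were on the array and 20 were tested, of which 4 rose and 16 fell, with a median of -1.68, or -1.35 when groups under 200 are held to 200 and -1.01 without the filter. Slc26a4, the pendrin exchanger, had 6205, 6370.5 and 6227 in fresh and 403, 386 and 433 in dexamethasone arrays and fell by 3.84 ± 0.066. Slc4a11, a transporter of cochlear fibrocytes, fell by 3.91 ± 0.075, and Car2, carbonic anhydrase 2, fell by 3.04 ± 0.062. The potassium channel Kcnk2 fell by 3.76 ± 0.093, with 2813, 2693 and 2616 in fresh and 149, 201 and 166 in dexamethasone arrays. Kcnk1, another potassium channel of the same family, went the other way, with 2153, 2152 and 1954 in fresh and 4066, 3851 and 3935 in dexamethasone arrays. Kcnk1 rose by 0.91 ± 0.062, and its incubated mean was 1824. Several of these genes are markers of fibrocytes and strial cells, whose summed signals are given below, and the part of those cells was not tested.

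Water channels, gap junctions and calcium handling were mostly lower as well. Of 8 tested water channel and gap junction genes, 2 rose and 6 fell. The connexin Gjb2 had 6845, 6948 and 6777 in fresh and 847, 754 and 819 in dexamethasone arrays, and its partner Gjb6 had 6659.7, 6327 and 6348 in fresh and 265, 253 and 242 with dexamethasone. Gjb2 fell by 3.04 ± 0.056 and Gjb6 fell by 4.51 ± 0.068. The water channel gene Aqp5 was close to its fresh level, with 248, 351 and 296 in fresh and 406, 349 and 385 in dexamethasone arrays and an incubated mean of 1285. Its arrays overlapped, although it passed the test (0.33 ± 0.11, adjusted p = 0.0121), and that call ended without fresh array A (adjusted p = 0.0562). Of 12 tested calcium genes, 3 rose and 8 fell, and the calcium pump gene Atp2b2 fell by 1.75 ± 0.066. Pvalb, parvalbumin, was at least 21-fold lower, and the channel Trpv4 rose by 0.93 ± 0.064.

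The simple epithelial keratins Krt8, Krt18 and Krt19 overshot. Krt8 had 3842, 4038 and 4198 in fresh and 23256, 21165 and 21209.9 in dexamethasone arrays, and Krt18 had 5081, 5452 and 5453 in fresh and 23062, 20636 and 21488 with dexamethasone. Krt8 rose by 2.43 ± 0.053, Krt18 rose by 2.02 ± 0.054 and Krt19 rose by 1.61 ± 0.051. Their incubated means of 18103, 17607.5 and 4295 were also above fresh. Of 22 keratin and epithelial surface genes, all on the array, 13 were tested, of which 9 rose and 2 fell, with a median of 0.79 (0.27 without the filter). Epcam, the epithelial adhesion molecule, was kept with an interval of -0.01 to 0.17, at 8963 ± 206 in fresh and 9480.4 ± 234 with dexamethasone, although its weaker probe set rose by 0.42. The protease inhibitor Spint2 fell by 0.69 ± 0.048 at a probe set that may bind several transcripts, while its other probe set changed by 0.06 and did not pass (adjusted p = 0.332), and the epithelial transcription factor Grhl2 fell by 0.36 ± 0.075.

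Junction genes rose more often than they fell, and the claudins went both ways. Of 29 listed, 28 were on the array and 22 were tested, of which 15 rose and 3 fell, with a median of 0.53 and 7 kept. Cldn6 had 283, 313 and 308 in fresh and 6473, 6090.3 and 6412 in dexamethasone arrays, and rose by 4.25 ± 0.054. Cldn4 had 505, 535 and 519 in fresh and 6402, 6117 and 6106 with dexamethasone, and rose too (log2 interval 3.40 to 3.60). Cldn8, a claudin of sodium-absorbing epithelia, had 3302, 2996 and 3019.6 in fresh and 479, 429 and 439.5 with dexamethasone, so that all 3 dexamethasone arrays lay far below fresh, and Cldn8 fell by 2.70 ± 0.068. The incubated means were 6312, 4937 and 938. Tjp1, the scaffold protein ZO-1, was kept with an interval of -0.15 to 0.04. Among 7 tested purinergic genes, 5 rose and 1 fell. P2rx2, an ATP-gated cation channel, rose by 2.43 ± 0.05, from 2070.5 ± 122 to 11267 ± 289, and the ecto-ATPase Entpd3 fell by 1.71 ± 0.075.

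Matrix genes went both ways. Of 45 listed, 42 were on the array and 35 were tested, of which 11 rose and 20 fell, with a median of -0.34. Among basement membrane collagens, Col4a1 had 502, 452 and 448 in fresh and 4135, 4079 and 4131 in dexamethasone arrays and rose by 3.06 ± 0.056. Col4a2 rose by 2.98 ± 0.11, from 245 ± 48.8 to 2133 ± 90.2. Among fibrillar collagens, Col1a2 had 4798, 5099.5 and 5045 in fresh and 1438, 1370.2 and 1499 with dexamethasone and fell by 1.77 ± 0.059. Col3a1 had 1475, 1376 and 1351 in fresh and 349.9, 371 and 413 in dexamethasone arrays, with an incubated mean of 1915, and fell by 1.81 ± 0.092. Dcn, decorin, fell by 1.03 ± 0.058, from 20348 ± 464 to 9952 ± 337. Cartilage collagen Col9a3 fell by 2.84 ± 0.085. Within these families Col4a3 fell by 0.28 ± 0.11, and the fibrillar Col5a1 rose by 0.52 ± 0.1 at 1 of its 2 tested probe sets.

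Mesothelial and fibroblast genes also went both ways. Of 12 tested, 4 rose and 6 fell. Msln, mesothelin, had 36.2, 42 and 57 in fresh and 964, 944 and 915 in dexamethasone arrays and was at least 4.71-fold higher. Fap, a fibroblast surface protease, had 8934, 8636 and 8841 in fresh and 955, 1075 and 1064 in dexamethasone arrays, with an incubated mean of 2312, and fell by 3.06 ± 0.056. Gas1, a growth arrest gene of mesenchyme, had 13825, 14466 and 13669 in fresh and 3772, 2719 and 3557 with dexamethasone, and fell by 2.07 ± 0.13. Wound response and matrix protease genes numbered 24 tested, of which 14 rose and 8 fell. The growth factor Hbegf rose by 3.16 ± 0.063 and Timp1, an inhibitor of metalloproteinases, was at least 8.39-fold higher, at 1677 ± 99.4 against an incubated mean of 3132. Mmp9 was at least 1.62-fold lower and Tgfb2 fell by 1.44 ± 0.098.

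Interferon-induced genes with dexamethasone lay near the background of all genes, with a median of -0.05 beside -0.07, whereas their median in incubated explants was 0.96 against the same fresh arrays. Of 36 listed, 32 were on the array and 21 were tested, of which 8 rose, 6 fell and 7 did not pass, and 7 were kept, beside 35.4% that rose and 35.8% that were kept over all genes. Ifit1, an RNA-binding antiviral protein, had 474, 454 and 509 in fresh, a mean of 3301 in incubated and 467, 466 and 425 in dexamethasone arrays. The fresh and dexamethasone arrays overlapped, the change of -0.08 ± 0.066 did not pass (adjusted p = 0.303) and the interval was -0.22 to 0.07. The RNA sensor Ifih1 and the 2-5A synthetase Oas1a were kept as well, with intervals of -0.23 to 0.05 and -0.18 to 0.08. Xaf1, a proapoptotic interferon target, was kept with an interval of -0.30 to 0.04, against an incubated mean that was 2455 and a fresh mean of 1229.

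Some members went below fresh. Rsad2, the antiviral enzyme viperin, had 1044, 1149 and 1210.0 in fresh, a mean of 1649.6 in incubated and 163, 179 and 118 in dexamethasone arrays. All 3 dexamethasone arrays lay under 200, so Rsad2 was at least 5.67-fold lower, a direction that the filter fixed. Ifit3 had 648, 739 and 688 in fresh and 506, 473 and 404 in dexamethasone arrays, with an incubated mean of 3824, and fell by 0.56 ± 0.08. Iigp1, an immunity-related GTPase, was at least 1.92-fold lower, and Igtp, of the same family, fell by 0.96 ± 0.059. Others stayed above fresh. Ddx58, the RNA sensor RIG-I, rose by 1.24 ± 0.092, and Ifitm3, a membrane restriction factor, rose by 0.96 ± 0.08. Ifi202b had 87.8, 39.4 and 53.8 in fresh and 2901, 3632 and 3977 in dexamethasone arrays and was at least 17.5-fold higher, with an incubated mean of 3453.

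The start regions of Ifit1, Ifit3 and Rsad2 are given because these 3 genes stood above fresh in incubated explants and at or under it with the steroid. Each holds the core of an interferon-stimulated response element, searched as TTTCNNTTTC on both strands. These letters occurred in 3.44% of all windows and, by gene, in 287 of 8227 tested genes with a window (3.49%). They occurred in 12 of the 20 tested interferon-induced genes with a window. Ifit1 (chr19:34640639-34640838, plus strand) has matches 104 and 85 bases before the start. Ifit3 (chr19:34583279-34583478, plus strand) has matches 156 and 122 bases before the start. Rsad2 (chr12:26456503-26456702, minus strand) has a match 120 bases before the start. The first 200 bases of each window, to which the coordinates refer, follow 5′ to 3′ with the matches in capitals.
Ifit1: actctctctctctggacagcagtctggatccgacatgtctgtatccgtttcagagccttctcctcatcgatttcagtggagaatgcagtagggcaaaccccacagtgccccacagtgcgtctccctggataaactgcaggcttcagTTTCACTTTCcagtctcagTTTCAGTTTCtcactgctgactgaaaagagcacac
Ifit3: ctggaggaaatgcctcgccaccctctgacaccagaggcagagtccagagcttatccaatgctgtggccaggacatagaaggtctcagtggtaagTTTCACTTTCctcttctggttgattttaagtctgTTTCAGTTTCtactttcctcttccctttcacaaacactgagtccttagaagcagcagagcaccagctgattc
Rsad2: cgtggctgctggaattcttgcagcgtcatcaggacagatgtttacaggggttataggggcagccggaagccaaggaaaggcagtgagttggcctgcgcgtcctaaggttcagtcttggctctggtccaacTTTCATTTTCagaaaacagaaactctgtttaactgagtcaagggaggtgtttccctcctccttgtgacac
No window of these 20 genes holds the letters GNACANNNTGTNC. Ddx58 and Gbp2, which rose, and Igtp, which fell, also hold TTTCNNTTTC, so the letters occur on genes of each outcome.

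**Figure D4:**
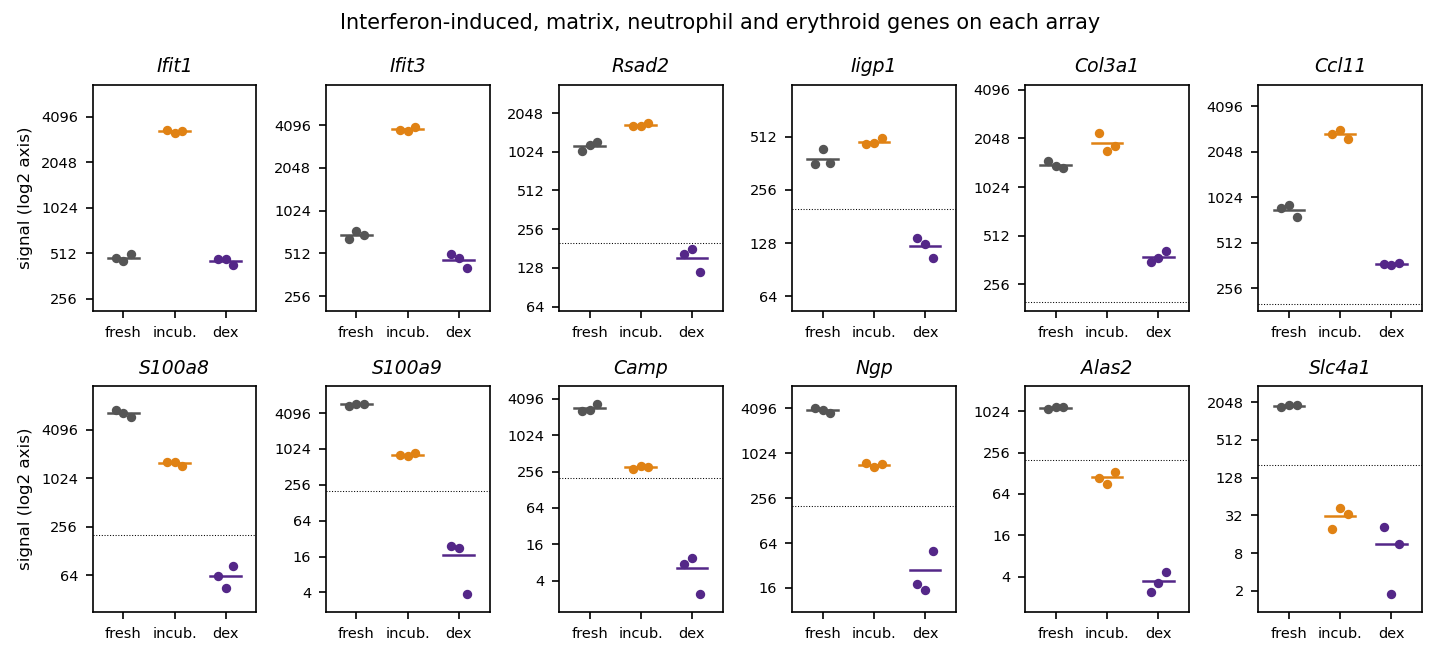
Signal of 12 genes on each array (log2 axis, a scale of its own in each panel), with 3 arrays each for fresh, incubated (incub.) and dexamethasone (dex) membrane; short lines are means and the dotted line marks 200. Ifit1 is at its fresh level with dexamethasone, Ifit3, Rsad2, Iigp1, Col3a1 and Ccl11 lie under it, and the neutrophil (S100a8, S100a9, Camp, Ngp) and erythroid (Alas2, Slc4a1) genes lie under 200.

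Among genes of antigen presentation, the named class I genes rose and the named class II genes fell. Of 21 tested complement and MHC genes, 10 rose and 9 fell. The class I gene H2-K1 rose by 1.02 ± 0.053, from 5559 ± 227 to 11315 ± 297, and B2m, its light chain, rose by 0.85 ± 0.048. The class II gene H2-Eb1 had 2016, 1786 and 1697 in fresh and 346, 409.9 and 413 in dexamethasone arrays, with an incubated mean of 851, and fell by 2.15 ± 0.091. H2-Aa, also of class II, fell by 1.43 ± 0.1. The complement protease genes C1ra and C1s1 were both still lost, since C1ra fell by 1.86 ± 0.077 and C1s1 fell by 1.25 ± 0.068. C1qb, a chain of the first complement component, rose by 1.45 ± 0.076.

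Cytokine and NF-kB genes had a list median of 2.19, or 1.66 with groups under 200 held to 200 and 0.38 without the filter. The genes added without the filter reached 200 on fewer than 3 of the 6 fresh and dexamethasone arrays. Of 40 listed, 39 were on the array and 19 were tested, of which 14 rose and 3 fell. Cxcl1, a neutrophil chemokine, had 134, 45.1 and 20.8 in fresh and 5498, 5649.7 and 5525 in dexamethasone arrays, with an incubated mean of 1567, and was at least 27.8-fold higher. Ccl2, a monocyte chemokine, had 31.3, 44.9 and 57.3 in fresh and 976, 832 and 971 with dexamethasone, with an incubated mean of 2280.1, and was at least 4.63-fold higher. Both chemokines thus stayed far above fresh, Cxcl1 above and Ccl2 below its incubated mean. Ccl11, the eosinophil chemokine eotaxin, instead ended under fresh, with 864, 910.5 and 754 in fresh, 2678 as the incubated mean and 371, 362 and 376 in dexamethasone arrays. Ccl11 fell by 1.12 ± 0.078. Csf1, a macrophage growth factor, rose by 2.83 ± 0.066, and the NF-kB subunit Relb was at least 6.04-fold higher. The adhesion molecule Vcam1 fell by 1.56 ± 0.075 and Icam1 was at least 5.81-fold higher.

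Immediate early and MAPK feedback genes were mostly above fresh. Of 33 listed, all 33 were on the array and 29 were tested, of which 25 rose and 0 fell under limma, with 4 that did not pass and a median of 1.30. At an unadjusted p under 0.05 the count of falls was also 0. Fosl1, a subunit of AP-1, had 3.5, 11.3 and 3.7 in fresh and 2313, 2356 and 2400.3 in dexamethasone arrays and was at least 11.8-fold higher. Ier3 rose by 2.86 ± 0.052, Maff was at least 12.8-fold higher and Myc was at least 5.79-fold higher. Dusp5, a phosphatase that switches off ERK, had 44.1, 32.6 and 71.4 in fresh and 5298, 4825 and 4736 in dexamethasone arrays, with an incubated mean of 2262, and was at least 24.8-fold higher.

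Amino acid stress and antioxidant genes mostly rose. Of 23 tested amino acid stress genes, 20 rose and 0 fell under limma, with a median of 1.09, and 2 fell with quantile normalization. Before adjustment, at p under 0.05, none of them fell either. Mthfd2, a mitochondrial folate enzyme, rose by 3.91 ± 0.058, and Asns, asparagine synthetase, rose by 2.48 ± 0.062. Of 26 tested antioxidant genes, 21 rose and 5 fell. Gclc, of glutathione synthesis, rose by 1.74 ± 0.053, from 895 ± 31.2 to 3069 ± 76.8 with an incubated mean of 1604, and Cat, catalase, rose by 0.86 ± 0.054. Gstm2, a glutathione transferase, fell by 1.78 ± 0.094. Heat shock and ER folding genes went both ways, with 13 rises and 13 falls of 31 tested and a median of -0.06. The heat shock gene Hspa1a had 3162, 2943 and 2992 in fresh and 12199.9, 11575 and 11356 in dexamethasone arrays and rose by 1.94 ± 0.062, while the ER genes Herpud1 and Xbp1 fell by 1.35 ± 0.051 and 0.85 ± 0.044.

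Most oxidative phosphorylation genes were kept. Of 31 tested oxidative phosphorylation genes, 21 were kept (all fresh-state genes: 35.8%), none was still lost or overshot, 16 rose and 6 fell, with a median of 0.15. With quantile normalization 13 rose and 10 fell, and the median was 0.067. Uqcrb, of complex III, had 29068, 30099 and 31497 in fresh and 30882, 28688 and 30619 in dexamethasone arrays and an interval of -0.12 to 0.10, although its other probe set rose by 0.50. Cycs, cytochrome c, rose by 0.90 ± 0.04 and Sdha, of complex II, fell by 0.65 ± 0.069. Of 21 tested glycolysis and hypoxia genes, 13 rose and 7 fell. The glucose transporter Slc2a1 rose by 1.08 ± 0.047, and Aldoc, a brain-type aldolase, fell by 3.18 ± 0.064. Of 17 tested cholesterol synthesis genes, 9 rose and 4 fell. Msmo1, a sterol oxidase, rose by 1.37 ± 0.053, to 1880.5 ± 37.7 against an incubated mean of 2557.

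Growth genes did not move together. Of 21 tested cell cycle genes, 11 rose and 8 fell, with a median of 0.33 that turned negative without the filter (-0.23), with a floor of 100 (-0.10) and over all probe sets of a gene (-0.022). The proliferation marker Mki67 had 1444, 1394 and 1460.1 in fresh and 24.3, 38.1 and 28.8 in dexamethasone arrays and was at least 7.16-fold lower. Cdkn1a, the p21 inhibitor of the cell cycle and a listed receptor target, rose by 1.84 ± 0.063, from 2311 ± 204 to 8315 ± 308. The cyclin gene Ccnd1 rose by 1.10 ± 0.079. Of 15 tested ribosomal protein genes, 13 rose and 0 fell under limma, with a median of 0.42 (0.28 with quantile normalization). With an unadjusted p under 0.05 the falls again numbered 0. Rplp0 rose by 1.00 ± 0.052.

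Some transcripts with the highest fresh signals were kept. Akr1a1, an aldehyde reductase, had 29589, 30603 and 31093 in fresh and 27712, 24839.5 and 26189.9 in dexamethasone arrays, with an interval of -0.33 to -0.10. Its 3 other tested probe sets fell by 0.65, 0.62 and 0.49, at or past the limit of the kept class. Clu, clusterin, was kept with -0.44 to -0.15, while 2 of its 3 other probe sets were called lower (-0.42 and -0.24), and Eef1a1, a translation elongation factor, with -0.24 to 0.02. The strongest signals on such arrays may be compressed, so an interval there bounds the measured signal only. Other transcripts with high signals were lost. Ttr, transthyretin, which carries thyroid hormone and retinol binding protein, had 24340.1, 23311 and 25556 in fresh and 4166, 4019 and 3988 in dexamethasone arrays and fell by 2.58 ± 0.045. Apod, apolipoprotein D, had 22709.9, 22264 and 22080.2 in fresh and 8579.5, 8422 and 8542 with dexamethasone, with an incubated mean of 3543, and fell by 1.39 ± 0.044. Rnase1, a secreted ribonuclease, fell by 1.35 ± 0.055, and Cnmd, chondromodulin, fell by 1.97 ± 0.049.

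Few of the 3430 kept genes stood far from fresh in incubated explants. There, 12 were called lower and 6 higher than fresh by at least 2-fold. Aldh1a1, a retinaldehyde dehydrogenase, had 5844, 5894 and 5302 in fresh, a mean of 1479 in incubated and 6415, 6282 and 6282 in dexamethasone arrays. Its interval was 0.03 to 0.28, all dexamethasone arrays were above fresh, and the rise of 0.16 ± 0.058 did not pass with quantile normalization (adjusted p = 0.486). Aldh1a2, of the same enzyme family, had 1869, 1666 and 1631 in fresh, a mean of 3977 in incubated and 1580.2, 1574 and 1493 in dexamethasone arrays, with an interval of -0.28 to -0.01. The incubated means of these 2 enzymes thus lay on opposite sides of fresh. Dhrs3, which reduces retinaldehyde, was not kept: it had 8108, 8070.5 and 9438 in fresh and 1550.2, 1485 and 1479 in dexamethasone arrays, with an incubated mean of 6416, and fell by 2.48 ± 0.062.

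Other kept genes also stood far from fresh when incubated. Fzd4, a Wnt receptor, had 986, 894 and 1000.3 in fresh, a mean of 302 in incubated and 901, 879.7 and 878 in dexamethasone arrays, and its weaker probe set, at a fresh mean of 250.2, fell by 1.04. Tgfbi, a matrix protein, had 3131, 3163 and 2867 in fresh, a mean of 7817 in incubated and 3406, 3339.5 and 3119 in dexamethasone arrays. Pcdh19, a protocadherin, had 669.7, 669 and 643 in fresh, an incubated mean of 1753 and 592, 639 and 663 with dexamethasone. The fresh and dexamethasone arrays overlapped for all 3. Of 3 other Tgfbi probe sets 1 rose by 0.28 and 1 fell by 0.23, and of 2 other Pcdh19 probe sets 1 fell by 0.29. Prmt1, an arginine methyltransferase, had an interval of 0.13 to 0.42, and Sla, an adaptor of lymphocyte and myeloid signalling, of -0.42 to 0.08. Tmod1, tropomodulin, had 5306, 3647 and 3678 in fresh and 3756, 4033 and 5131 in dexamethasone arrays, with a single high array in each group.

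Some of the named genes stood near or under fresh in incubated explants and above it with dexamethasone. Of the 586 overshot genes, the incubated group was called lower than fresh at 2, not called at 12 and called higher at 572. Dpep1, a renal-type dipeptidase, had 270.1, 339 and 366 in fresh, a mean of 323 in incubated and 2275, 2272 and 2474 in dexamethasone arrays. Flt1, a VEGF receptor, had 302, 261 and 341 in fresh, a mean of 323 in incubated and 1430.1, 1238 and 1414 in dexamethasone arrays. Dpep1 rose by 2.74 ± 0.12 and Flt1 rose by 2.07 ± 0.11, each with no overlap. Ncam1, a neural adhesion molecule, had 311, 316 and 333 in fresh and 758, 877 and 979.6 in dexamethasone arrays and rose by 1.35 ± 0.1, with an incubated mean of 185. F13a1, a clotting transglutaminase found in macrophages, rose by 1.13 ± 0.11, from 262 ± 12.2 to 609.6 ± 37.1, with an incubated mean of 98.6. Serpina3n, an acute phase protease inhibitor, rose by 1.10 ± 0.1, from 481 ± 43.4 to 1070.1 ± 109, with an incubated mean of 419. Flt1 is also an endothelial gene: of the endothelial markers, Kdr fell by 1.67 ± 0.086, and of 12 on the array 3 were at 200 or more on all fresh and 3 on all dexamethasone arrays, while 6 lay under 200 on all fresh arrays and 9 on all dexamethasone arrays.

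The largest rises and falls over all genes stood beside incubated means that were also far from fresh. Saa3, an acute phase apolipoprotein, had 55.3, 25.5 and 55.2 in fresh and 7547, 7157 and 7314 in dexamethasone arrays and was at least 36.7-fold higher, with an incubated mean of 1108. Anxa3, annexin A3, had 368, 297 and 345 in fresh and 15740.3, 14205 and 15677 with dexamethasone, rose by 5.37 ± 0.071, and had an incubated mean of 12147. Lgals3, galectin 3, rose by 5.15 ± 0.062 and S100a6, a calcium-binding protein, rose by 4.45 ± 0.078. Ccn1, a matricellular protein, rose by 4.01 ± 0.11, and Tubb6, a tubulin, was at least 16.3-fold higher. Dnase1, a secreted nuclease, had 9812, 9921 and 10263 in fresh and 63.5, 34.8 and 33.5 in dexamethasone arrays and was at least 50-fold lower. Car3, carbonic anhydrase 3, fell by 5.70 ± 0.081, S100b fell by 5.79 ± 0.17, and Nat8l, an N-acetyltransferase of neurons, was at least 25.4-fold lower.

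Summed signals of neutrophil and erythroid markers were lower with dexamethasone. The 8 neutrophil markers on the array summed to 20859 to 21634.5 in fresh, 3791 to 3948 in incubated and 160.3 to 280.2 in dexamethasone arrays. On all fresh arrays 7 of the 8 were at 200 or more, and on the dexamethasone arrays none was, so these 7 were tested through the fresh arrays alone and could only be lower. S100a8 had 7161, 6690.4 and 5884 in fresh, a mean of 1592 in incubated and 62.6, 44.3 and 83.7 in dexamethasone arrays, at least 32.9-fold lower than fresh. Camp, an antimicrobial granule peptide, had 2549, 2716 and 3329.6 in fresh and 7.5, 9.7 and 2.4 with dexamethasone, with an incubated mean of 300.4, at least 14.3-fold lower than fresh. The 5 erythroid markers summed to 3337 to 3705 in fresh, 255 to 289.5 in incubated and 68.8 to 146 in dexamethasone arrays. All 5 lay under 200 on the incubated and the dexamethasone arrays, as 2 of them did on all fresh arrays.

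Sums were also lower for fibrocytes, neurons, supporting cells and strial marginal cells. The 11 markers of fibrocytes of the spiral ligament and limbus summed to 81605 to 85305 in fresh, 10828 to 11793 in incubated and 9850.5 to 10417 in dexamethasone arrays, with 10 lower and 1 higher. Coch, cochlin, had means of 15914 ± 353 in fresh and 405 ± 11.9 in dexamethasone arrays, and Otos, otospiralin, had 12786, 13592 and 13348 in fresh and 328, 313 and 331 with dexamethasone. Coch fell by 5.19 ± 0.058 and Otos fell by 5.22 ± 0.06, with incubated means of 152 and 159.5. The 13 neuronal markers summed to 25882 to 27078 in fresh, 776 to 854 in incubated and 629 to 701 in dexamethasone arrays. All 13 were under 200 on the dexamethasone arrays, among them Nefl (at least 32.4-fold lower) and Snap25 (at least 23.2-fold lower). The 10 supporting cell markers summed to 10082 to 10433 in fresh, 942 to 980 in incubated and 1347 to 1475.5 in dexamethasone arrays. The 9 strial marginal markers summed to 38649 to 40542.5, 12162.5 to 12551 and 12240 to 13101.5 in the same order. The fibrocyte and strial marginal sums both hold Slc12a2, with 9814, 9812 and 10379 in fresh and 3340, 3148 and 3075 with dexamethasone. The 8 markers of strial intermediate cells and melanocytes summed to 9087 to 9621 in fresh and 8755 to 9180 in dexamethasone arrays, though 4 were at 200 or more on all fresh arrays and 1 on all dexamethasone arrays. That 1 was Met, which made up most of both sums and rose. It had 6804, 6351 and 7001.5 in fresh and 8580, 8417 and 8792 with dexamethasone. The 3 other tested markers, Dct, Kcnj10 and Slc45a2, were called lower.

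More of the tested macrophage markers rose than fell, and Schwann cell markers went both ways. The 17 macrophage markers summed to 10340 to 11692 in fresh, 11528.5 to 11941 in incubated and 11978 to 12182 in dexamethasone arrays, and of 13 tested 9 rose and 3 fell. Without the filter, or with a floor of 100, 5 fell. The list median was 0.44, or 0.35 without the filter. Cd68, a lysosomal protein of macrophages, had 137, 146 and 107 in fresh and 1855, 1836 and 1946 in dexamethasone arrays and was at least 9.39-fold higher, while Csf1r fell by 0.68 ± 0.064 and Ptprc was at least 4.14-fold lower. The 9 Schwann cell markers summed to 36681 to 37460 in fresh, 16081 to 17963 in incubated and 18793 to 20462 in dexamethasone arrays. Of 8 tested with dexamethasone against fresh, 5 were lower and 2 higher. Most of the fall in this sum came from S100b alone, with a mean of 14752 in fresh and 243 with dexamethasone. Sox10 fell by 0.40 ± 0.06, and Mbp rose by 0.39 ± 0.046 at its strongest probe set while 5 of its 6 others were called lower. The part of changed cell numbers in any list above was not tested.

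**Figure D5:**
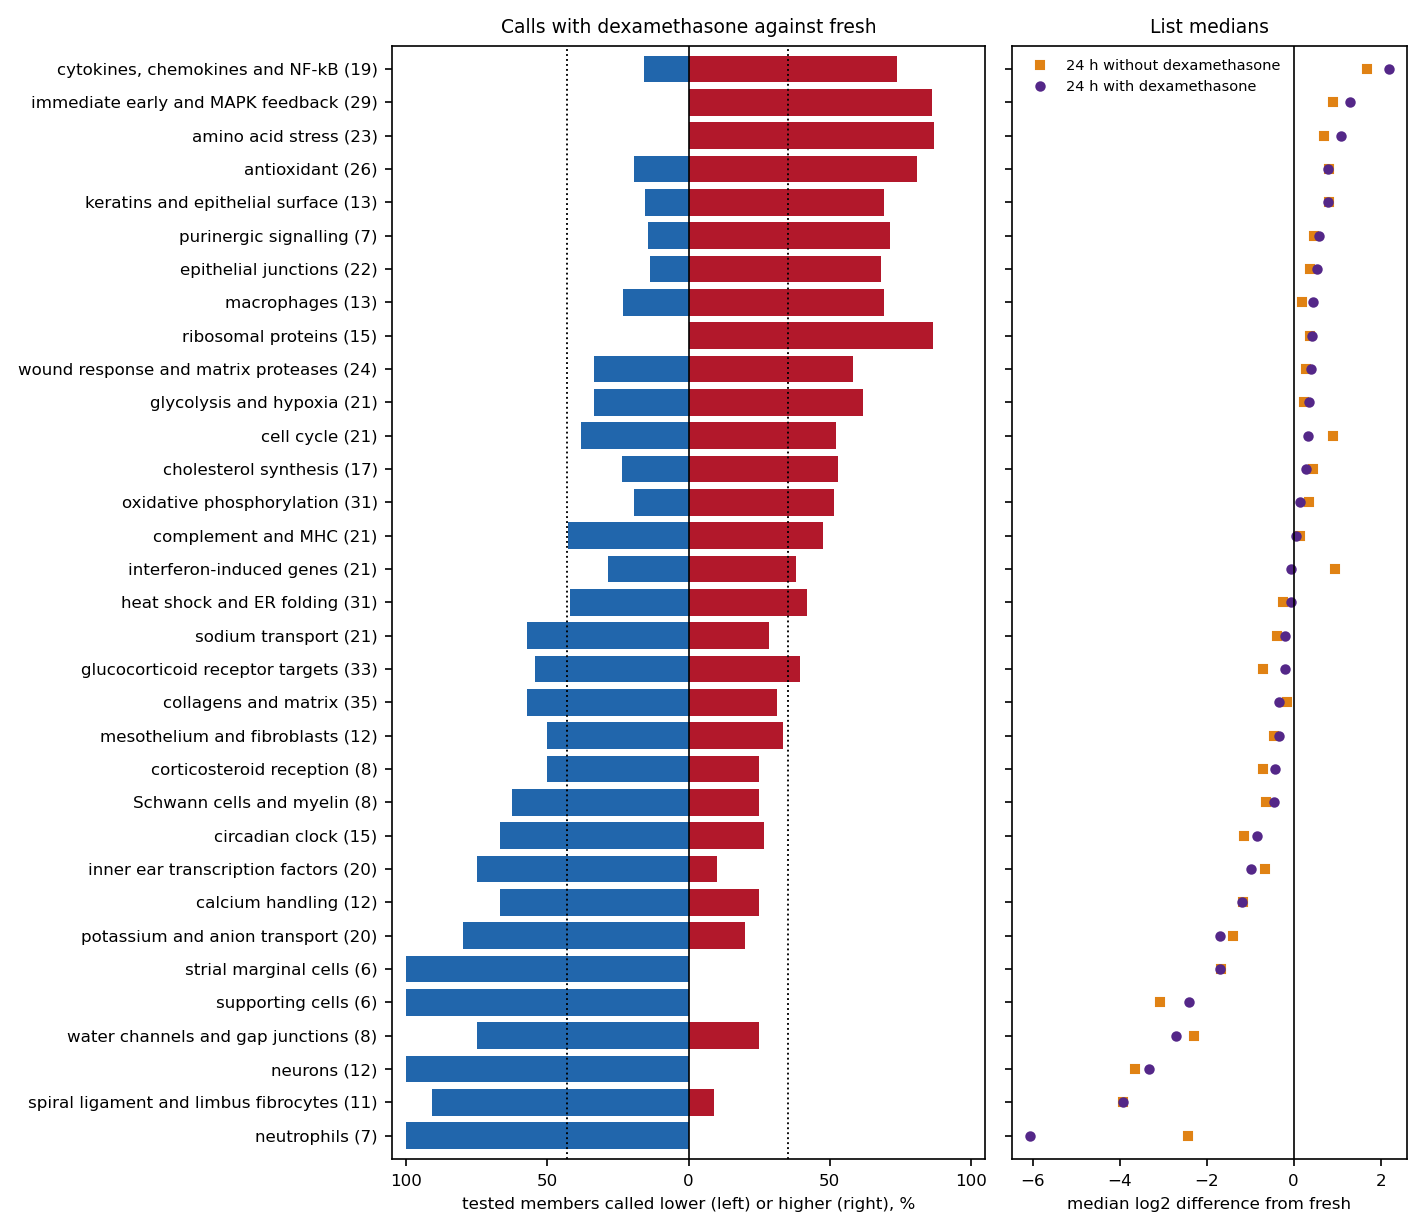
Lists with at least 5 tested genes, with the number tested in parentheses. Left, the percent of tested members called lower (blue) and higher (red) with dexamethasone against fresh, with dotted lines at the shares over all genes, 43.1% and 35.4%; right, the list median of the log2 difference from fresh without (squares) and with (circles) dexamethasone, against the same fresh arrays. Cytokine and immediate early genes stand at the top and neutrophil markers at the bottom.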

How the data were processed

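Affymetrix arrays measured RNA from fresh membrane and from explants kept 24 h without or with dexamethasone, 3 arrays each. Per the labels' protocols, extraction used an RNeasy Micro kit and the RNA went through 2 rounds of amplification. Values deposited by the authors are intensity on a linear scale, a single number for each probe set, scaled per array to a target of 500 (scale factor 1, per the labels). The software that summarised probes into signals is not given in the sources used here. A signal of 200 was the floor, with no detection calls, and the number of arrays limits the precision.

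Probe sets with a signal of 200 or more on at least 3 of the 6 fresh and dexamethasone arrays were analysed as log2(signal + 32). The fit used all 9 arrays with a mean for each group, so that the groups share an estimate of the spread, with an intensity trend in the eBayes step (limma 3.58.1 in R 4.3.3). P-values were adjusted over all tested probe sets by the Benjamini-Hochberg method, and the model was tested on simulated data. A gene was represented by its probe set of highest mean log2 signal over all 9 arrays. Some of these probe sets (names ending in _s_at or _x_at) may hybridize to several transcripts, as for Ttr, Mt1, Tgfbi, Clu, C1qb, C1s1, Cxcl1, Dbp, H2-Aa, H2-K1, Ifi202b, S100a8, Ccn1, Asns, Spint2 and Xbp1. A single gene symbol was given for 16263 of the tested probe sets, several for 478 and none for 1818. Summaries and figures used Python 3.11.15, pandas 2.3.3, NumPy 2.4.6 and matplotlib 3.10.9.

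The members, gene lists and classes were chosen with earlier results of these data known. Of 866 list entries, 787 matched the array by symbol. Named genes were the 10 largest rises and falls, overshot genes whose incubated level was below fresh, the 8 kept genes farthest from fresh when incubated and the 8 of highest fresh signal. To these were added up to 4 members of each list by adjusted p in each direction, a set of sodium, corticosteroid and membrane genes, and the 8 largest falls under both other groups from an incubated level above fresh. Other named genes were chosen after their values were seen, such as Dpep1, Flt1, Pdk4, Kcnk1, Cat, Wnk4, Usp2, Pou3f4, Aldh1a2, Tgfbi, Dhrs3, Rnase1, Ttr, Apod, Cnmd, Serpina3n, Dcn, Gas1, Trim63, Ccl2, Ifit3, Col4a3, Col5a1, Epcam, Glul, Ifih1, Lmx1a, Oas1a, Tjp1 and Xaf1. Alternatives changed the scaling, pseudocount, filter, trend, arrays, probe set choice and limits of the kept class.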

Additional observations from a re-analysis of the deposited data

How the results depend on the processing

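Array letters A to C repeat across groups but did not pair the arrays: deviations of same-letter fresh and dexamethasone arrays had correlations of -0.029, -0.020 and -0.003. With the letter as a replicate block 14187 probe sets were called (14224 without), 7001 higher and 7186 lower, with 3425 kept, 1493 still lost and 586 overshot genes. Leaving out each fresh or dexamethasone array in turn gave 13668 to 13764 calls, 6733 to 6813 higher, 6908 to 6968 lower, 1680 to 1705 higher and 2357 to 2376 lower by at least 2-fold, 3172 to 3224 kept, 1481 to 1497 still lost and 584 to 594 overshot.

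Without the filter 10815 probe sets were called lower (7209 with it), 3838 by at least 2-fold (2359 with it). Those called higher numbered 8549 (7015 with it), 2100 by at least 2-fold (1684 with it). More probe sets were tested without the filter, and the part of this in the counts was not tested. With kept limits of 0.25 or 1 in place of 0.5, 911 or 6803 genes were kept rather than 3430. The 3 other scalings moved the median change by at most 0.036. The cell cycle list median reversed from 0.33 to -0.23 without the filter, -0.10 with a floor of 100 and -0.022 over all probe sets of a gene; the cause was not tested. Counted as pairs of a named gene and an alternative, calls kept their side of the threshold in 4827 pairs, were lost in 52 and gained in 2 (Rps29, Prss8). The lost ones were small changes in Aldh1a1, Aldh1a2, Aox3, Aqp5, Atp2b1, Ctnnb1, Ebf1, Fdft1, Scara5 and Scnn1g. Signals under 200 limit the falls to bounds.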
